A study of Mus musculus with 2 samples.

Results

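Unannotated genes that lie over a protein-coding gene on its own strand are described here, in brain tissue of mice given lipopolysaccharide (LPS), an inflammatory molecule from the outer membrane of bacteria. An unannotated gene is a locus that the authors listed as unannotated, under an MSTRG identifier, with its position, its strand and its level in each library. It was taken when its position shared at least 1 base with a gene in the authors' table of protein-coding genes and its strand was the same. This held for 4996 of the 7379 unannotated genes (67.7%), and these entries lay over 5054 of the 13381 coding genes (37.8%). Of the others, 884 overlapped coding genes on the other strand only and 1499 overlapped none. Of the 4996 entries, 831 also overlapped a coding gene on the other strand, and reads of both strands may be mixed there, since strand use in these libraries is not stated. On their own strand 4692 of the 4996 touched an annotated exon of a coding gene, and 1113 touched an annotated noncoding exon. Most thus lie over annotated exons of coding genes, and whether they are other forms of those genes was not tested.

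There were 2 libraries, 1 titled miR-7KD and 1 titled WT, both from C57BL/6J brain. The methods of the study give LPS at 2.5 mg/kg, collection after 12 h and an age of 8 to 10 weeks for wild-type and miR-7-deficient mice, whereas the sample labels do not name LPS and give 6 to 8 weeks. The sources used here do not say how the miR-7 deficiency was made. Titles and genotype fields contradict each other, since the genotype given under the miR-7KD title is wild type and that under the WT title is miR-7 KD, and the descriptions go with the genotype fields, so the libraries are called miR-7KD and WT by their titles only, and directions are those of the miR-7KD-titled library over the WT-titled one. The descriptions call each sample a representative of several replicates, and with 1 library per title no replicate error is known, no test was made and each difference is one between these libraries. The extraction protocol names retinas, but the photoreceptor genes Sag, Gnat1 and Pde6b were not listed, whereas the synaptic gene Snap25 was at 221 FPKM in both libraries. The summed level of astrocyte markers was 440 FPKM in the miR-7KD-titled library and 715 FPKM in the WT-titled library, that of oligodendrocyte markers was 612 FPKM in miR-7KD and 474 FPKM in WT and that of neuron markers was 748 FPKM in miR-7KD and 745 FPKM in WT. Microglia markers summed to 106 FPKM in miR-7KD and 112 FPKM in WT, and endothelial and mural markers to 37.3 FPKM in miR-7KD and 31.0 FPKM in WT. The astrocyte sum includes the gene Slc1a2, at 24.5 FPKM in miR-7KD and 141 FPKM in WT. The unannotated entry over Slc1a2 was at 19.9 FPKM in miR-7KD and 25.5 FPKM in WT. What the division of level between a gene and its entry adds to the sums was not tested. In such bulk tissue fewer cells of a type and less RNA per cell cannot be told apart. The part of these shifts in the differences below was not tested. FPKM scales the fragments of a gene to its length and to the library, and no read counts stand beside it, so depth is unknown.

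A protein-coding gene of the brain is often long, with small exons separated by large introns that are removed from the primary transcript by splicing. The annotation lists the spliced forms, together with the first and the last base of each. RNA that starts or ends elsewhere, joins exons in another way, reads through into a neighbouring gene or keeps intron sequence has no annotated form, and assembly from the reads lists it as a new locus although it comes from the strand and region of a known gene. MicroRNA hairpins also lie in such transcripts, often within introns of their host gene.

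The overlaps tied these entries to microRNA hairpins and to promoters. Of 1005 mouse microRNA hairpins in the RefSeq tables of GRCm38.p6, 249 lay inside 229 of the entries on the same strand, and 233 of them also lay inside the coding gene. The microRNA of the study is among them, because the Mir7-1 hairpin (chr13:58392779-58392886) lies in an entry over Hnrnpk, an RNA-binding protein of the nucleus. Mir128-1 and Mir128-2, which give the same mature microRNA, lay in entries over R3hdm1 and Arpp21. The mature sequences are shown because they name the microRNA of the study and one that is made from a pair of host genes, and capitals mark the seed, bases 2 to 8, which pairs with target RNA.
mmu-miR-7a-5p: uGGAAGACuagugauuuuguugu
mmu-miR-128-3p: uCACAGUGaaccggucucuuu

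Many entries began upstream of the annotated start, and for 1242 coding genes the promoter window lay wholly inside an entry over the same gene. The 250 bases before the annotated start are shown for the neuropeptide gene Sst, somatostatin, and for the metal-binding protein gene Mt2, metallothionein 2. Entry and coding gene differed in both, and both entries covered all of these bases. In the Sst promoter (chr16:23890845-23891094, minus strand, GRCm38.p6) capitals mark a cAMP response element, TGACGTCA. In the Mt2 promoter (chr8:94172368-94172617, plus strand, GRCm38.p6) they mark matches to the core of the metal response element, TGCGCNC or TGCACNC, on either strand.
Sst promoter: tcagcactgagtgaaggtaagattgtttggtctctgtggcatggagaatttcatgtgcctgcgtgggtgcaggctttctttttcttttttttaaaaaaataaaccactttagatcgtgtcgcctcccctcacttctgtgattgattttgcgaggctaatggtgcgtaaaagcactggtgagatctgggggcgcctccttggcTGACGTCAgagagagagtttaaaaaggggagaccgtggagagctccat
Mt2 promoter: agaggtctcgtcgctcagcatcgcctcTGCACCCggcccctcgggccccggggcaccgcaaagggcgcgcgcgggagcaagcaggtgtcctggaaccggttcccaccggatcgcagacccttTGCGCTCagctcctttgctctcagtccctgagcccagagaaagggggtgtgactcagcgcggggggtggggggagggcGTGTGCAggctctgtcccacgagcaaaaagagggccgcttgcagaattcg
The cAMP response element was found in 508 of 32851 promoter windows of this length (1.55%), in 2.57% of those of coding genes with an entry and in 32 of the 1664 windows inside an entry over their own gene (1.92%). The core of the metal response element was found in 21.4% of all windows, in 30.9% of those of coding genes with an entry and in 27.8% of those inside an entry. Both are letter matches only.

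Most entries covered their coding gene almost whole. Where an entry lay over several coding genes, the gene with the most shared bases was taken. The median entry held 99.9% of the span of the coding gene, the 25th percentile was 91.2%, 1674 entries (33.5%) held all of it and 327 held less than 10%. Both ends were exactly the same in 5 entries. The start lay within 100 bases of the annotated start in 2291 entries (45.9%) and the end lay within 100 bases of the annotated end in 3104 (62.1%). Entries began upstream of the coding gene in 2200 cases, by over 1 kb in 354, and ended downstream of it in 2586, by over 1 kb in 629. Spans ran from 202 to 2961839 bases with a median of 27503. The median entry had 10 exons in its longest listed form, 281 entries had 1 exon, and 117 had no listed transcript.

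By these shares the entries fell into 4 classes, set after the values were seen. Gene-wide entries, 3184 of them (63.7%), shared at least 90% of the coding gene's span and had at least 90% of their own span inside it. Another 590 (11.8%) covered at least 90% of the gene but extended beyond it and are called longer than the gene. Intronic entries, 301 of them (6.02%), lay wholly inside the coding gene and touched no exon of a coding gene annotated on that strand in GENCODE M21. An annotated noncoding exon was touched by 14 of them (4.65%). The remaining 921 (18.4%) are called partial. Of the intronic entries 260 had 1 exon (86.4%), against 6 of the gene-wide entries. The plot of both shares has the gene-wide entries in its upper right corner and the intronic entries at its upper left.

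**Figure D1:**
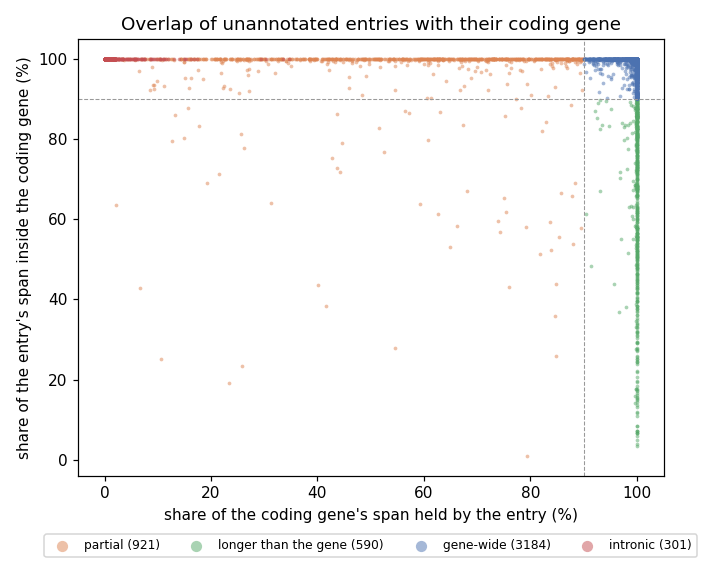
Share of the coding gene's span held by each unannotated entry (x axis, %) and share of the entry's span inside the coding gene (y axis, %), 1 point per entry. Dashed lines mark 90%. The 3184 gene-wide entries sit in the upper right corner, and the 301 intronic entries lie along the top edge toward the left.

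Several entries joined more than 1 coding gene. There were 195 such entries, 7 of them over 4 or more genes. The entry over most genes, MSTRG.14044 on chromosome 4, spanned 14, a block of near-identical copies that holds the chemokine genes Ccl21b and Ccl27b, at 3.44 FPKM in the miR-7KD-titled library and 2.97 FPKM in the WT-titled library. How fragments were divided among such copies is not given. MSTRG.20226 on chromosome 7 ran over 12 genes, among them the growth factor receptor gene Fgfr2, whose listed span of 2960900 bases it nearly matched, at 1.44 FPKM in miR-7KD and 2.11 FPKM in WT. On chromosome X, MSTRG.23691 joined Armcx5, Bhlhb9, Gprasp1 and Gprasp2, at 13.4 FPKM in the miR-7KD-titled library, against 22.1 FPKM in the WT-titled library. MSTRG.7421 joined the acid-sensing channel gene Asic1 with Gpd1 and Smarcd1, at 40.0 FPKM in miR-7KD and 44.4 FPKM in WT. None of these 4 entries, chosen after their values were seen, differed 2-fold.

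The level of an entry was close to that of its coding gene. Across the 4996 entries, Spearman's rank correlation between entry and coding gene was 0.888 in the miR-7KD-titled library and 0.884 in the WT-titled library. The median entry was at 0.916 times the FPKM of its coding gene in the miR-7KD-titled library and at 0.913 times in the WT-titled library, and 87.6% of entries in miR-7KD and 86.2% in WT lay within 2-fold of it. These points share a library, and an entry and its gene share positions and may share fragments, so the relation is a description with no test. The median entry had 6.21 FPKM in the miR-7KD-titled library and 6.20 FPKM in the WT-titled library, and entries made up 89.4% in miR-7KD and 90.3% in WT of the FPKM of all unannotated genes.

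By class, this correlation for gene-wide entries was 0.922 in miR-7KD and 0.917 in WT, and for partial ones 0.907 in miR-7KD and 0.904 in WT. It was 0.766 in miR-7KD and 0.791 in WT for those longer than the gene, and 0.134 in miR-7KD and 0.118 in WT for intronic ones. Gene-wide entries were above their coding gene in 23.1% of cases in the miR-7KD-titled library and in 22.3% in the WT-titled library. Of the 127 entries longer than the gene that reached over 2 or more coding genes, 50.4% in miR-7KD and 55.9% in WT were above the gene taken. The correlation was therefore higher for entries with exons of the gene than for entries in introns. Of the 301 intronic entries, 247 stayed under 2 FPKM in both libraries. So narrow a range can by itself lower a rank correlation, and its part was not tested. What an entry counts differed too. The level of an entry exceeded the sum of its listed unannotated transcripts in 74.8% of gene-wide entries in miR-7KD and 76.3% in WT, and equalled it, within 0.1%, in 0.352% in miR-7KD and 0.480% in WT. In intronic entries the level equalled that sum in 98.7% of cases in miR-7KD and 98.0% in WT, as it did in 92.1% of antisense entries in miR-7KD and 91.7% in WT. Most gene-wide entries thus held more than their listed transcripts, and the sources used here do not say how the value was composed.

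**Figure D2:**
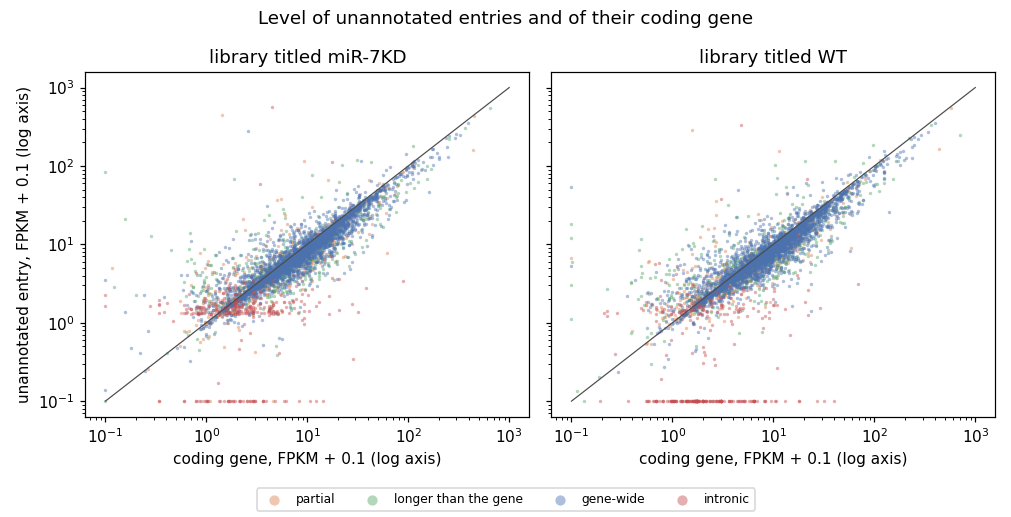
FPKM of each unannotated entry (y axis) against FPKM of its coding gene (x axis), both with 0.1 added and on log axes, in the miR-7KD-titled library (left) and the WT-titled library (right). The line marks equal levels. Gene-wide entries lie along it, and intronic entries form a band near 1 FPKM and a row at 0, which holds 48 of them on the left and 158 on the right.

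Most of the 10 highest entries lay over abundant genes of the brain. The entry over Eef1a1, the translation elongation factor that brings aminoacyl-tRNA to the ribosome, was at 428 FPKM in the miR-7KD-titled library and 548 FPKM in the WT-titled library, beside 448 FPKM in miR-7KD and 573 FPKM in WT for the coding gene. Over Ttr, the thyroid hormone carrier of the choroid plexus, the entry was at 357 FPKM in miR-7KD and 350 FPKM in WT beside 392 FPKM in miR-7KD and 403 FPKM in WT for the gene. The entry over the ribosomal protein gene Rpl8 was at 250 FPKM in miR-7KD and 187 FPKM in WT beside 329 FPKM in miR-7KD and 245 FPKM in WT, and that over Rpl4 was at 253 FPKM in miR-7KD and 250 FPKM in WT beside 294 FPKM in miR-7KD and 290 FPKM in WT. The entry over Ndrg2, a gene of astrocytes, was at 239 FPKM in miR-7KD and 231 FPKM in WT beside 256 FPKM in miR-7KD and 247 FPKM in WT. These 5 pairs had nearly the same ratio between libraries in entry and gene. Eef1a1 and the ribosomal protein genes have many retrocopies, so their fragments may be shared with them.

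An intronic entry and a partial one stood apart from their genes in both libraries. In an intron of Cmss1, MSTRG.8011 (chr16:57391112-57391676, 1 exon, 565 bases) was at 563 FPKM in the miR-7KD-titled library and 335 FPKM in the WT-titled library, whereas Cmss1 was at 4.37 FPKM in miR-7KD and 4.67 FPKM in WT. It held 0.185% of the gene and overlapped no annotated noncoding gene on its strand. MSTRG.151, which overlaps 6.62% of the collagen gene Col19a1 at its 5′ end and reaches 28725 bases upstream, was at 443 FPKM in miR-7KD and 284 FPKM in WT beside 1.33 FPKM in miR-7KD and 1.47 FPKM in WT for the gene, and 8 annotated pseudogenes lay under it on the same strand. The next intronic entries by level were in Gphn, gephyrin of the inhibitory synapse, at 113 FPKM in the miR-7KD-titled library against 67.9 FPKM in the WT-titled library, and in Ssh2, a cofilin phosphatase, at 58.3 FPKM in miR-7KD against 37.5 FPKM in WT. The Ssh2 entry touched an annotated noncoding exon. Gphn and Ssh2 were chosen after their values were seen. The 3 intronic entries at 20 FPKM or more were all higher in the miR-7KD-titled library by less than 2-fold.

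Between libraries, 349 of the 4996 entries were at least 2-fold higher in the miR-7KD-titled library (6.99%) and 217 were at least 2-fold lower (4.34%). The measure was the log2 ratio after 0.1 FPKM was added on both sides, taken for entries and genes with 1 FPKM or more in at least 1 of them. Of all 7379 unannotated genes, 16.4% were higher and 9.46% lower by this measure, and of 11969 coding genes 6.01% were higher and 5.58% lower. Entries over coding genes on their strand therefore stood near the coding genes and below the other unannotated genes, of which 24.9% of antisense entries and 42.8% of those away from coding genes were higher. Every unannotated gene listed had 1 FPKM or more in at least 1 of the libraries, so an entry at 0 in the other library had to differ.

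The classes were far apart. Of gene-wide entries 102 were higher and 106 lower (3.20% and 3.33%). Of those longer than the gene 32 were higher and 25 lower, and of partial ones 39 and 31. Of the 301 intronic entries 176 were higher and 55 lower (58.5% and 18.3%), and 206 of these 301 were listed at 0 in 1 library and so had to differ by the listing limit. Of all entries, 51 were listed at 0 only in the miR-7KD-titled library and 162 only in the WT-titled library. No gene-wide entry was listed at 0. The excess of higher over lower counts among all entries lay in the intronic class, since the other classes together had 173 higher and 162 lower.

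**Figure D3:**
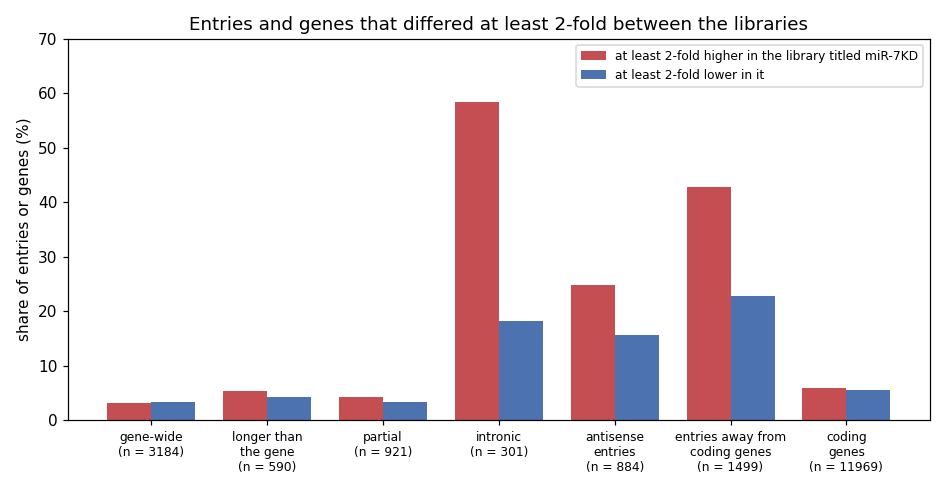
Share of entries or genes (y axis, %) that were at least 2-fold higher (red, left bar) or lower (blue, right bar) in the miR-7KD-titled library, for the 4 classes of entries over coding genes on their strand, for antisense entries, for entries away from coding genes and for coding genes. Among the 4 classes the intronic one is highest with 58.5% and 18.3%, and the gene-wide one is lowest with 3.20% and 3.33%. Entries away from coding genes have 42.8% and 22.9%.

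Among gene-wide entries, the share that differed was smaller where the entry had more exons. At least 2-fold differences, in either direction, were seen in 17.2% of 443 entries of 2 to 5 exons, in 8.20% of 878 entries of 6 to 10, in 4.16% of 1105 entries of 11 to 20 and in 0.867% of 692 entries of 21 or more. The median level in the miR-7KD-titled library was 6.57 FPKM at 2 to 5 exons and 7.67 FPKM at 21 or more, and the median span was 10968 and 86682 bases. By level, 12.7% of entries at 1 to 2 FPKM differed, 6.67% at 2 to 5, 5.69% at 5 to 20 and 8.24% at 20 or more. The shares by level had no steady order, unlike those by exon number, and the part of either was not tested. The coding genes under these entries ran the same way, with 19.1%, 8.70%, 4.36% and 1.59% at least 2-fold different in the same groups of exon number.

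Most gene-wide entries and their coding genes differed by less than 2-fold, but where 1 of a pair differed the other often did not. Of 3168 gene-wide entries whose coding gene also reached 1 FPKM, neither differed 2-fold in 2851. The coding gene was at least 2-fold higher in 102 and lower in 124. The entry was also at least 2-fold higher in 53 of the 102, differed less in 47 and was at least 2-fold lower in 2. It was also lower in 51 of the 124, differed less in 68 and was higher in 5. In all, 104 of the 226 differences of coding genes (46.0%) were found in the entry over nearly the same bases, and 104 of the 202 differences of entries (51.5%) were found in the coding gene. Where the coding gene was higher its median log2 ratio was 1.58 and that of the entry 1.03, and where it was lower these were -1.49 and -0.86. These pairs were picked by the ratio of the coding gene, which by itself favours a smaller ratio in the entry. Medians for pairs picked by the entry were not taken. Many entries counted as differing less may thus lie just under the limit. Spearman's rank correlation of both log2 ratios was 0.650. With a 3-fold limit for both, chosen after the values were seen as all comparisons in this paragraph, 39 of 106 coding differences (36.8%) were found in the entry.

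**Figure D4:**
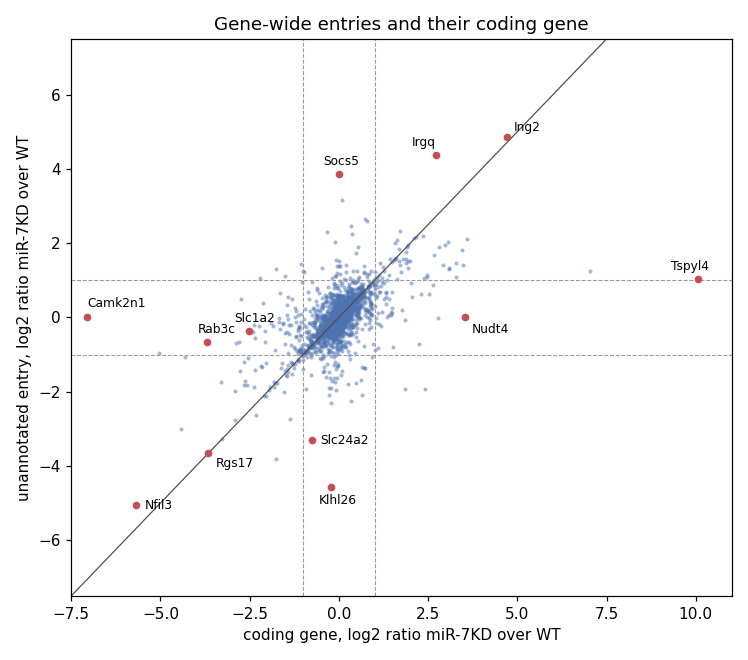
Log2 ratio of the miR-7KD-titled library over the WT-titled library (0.1 FPKM added) for the unannotated entry (y axis) and its coding gene (x axis), 1 point per gene-wide entry (n = 3168), with named genes in red. Dashed lines mark 2-fold and the solid line equal ratios. Ing2, Nfil3 and Rgs17 lie near the line, Camk2n1, Nudt4, Rab3c and Slc1a2 lie between the horizontal dashed lines, Tspyl4 is at the far right, and Socs5, Klhl26 and Slc24a2 lie between the vertical dashed lines.

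Where both were higher, the entry often had nearly the level of the gene. Ing2, a chromatin reader of methylated histone H3, had 6.83 FPKM in the miR-7KD-titled library and 0.138 FPKM in the WT-titled library for the entry, beside 7.51 FPKM in miR-7KD and 0.189 FPKM in WT for the gene. Ywhab, a 14-3-3 adaptor protein, had 164 FPKM in miR-7KD and 43.8 FPKM in WT for the entry beside 173 FPKM in miR-7KD and 46.2 FPKM in WT for the gene. The interferon-inducible GTPase Iigp1 had 17.6 FPKM in miR-7KD and 4.51 FPKM in WT beside 18.9 FPKM in miR-7KD and 4.82 FPKM in WT, and Irgq of the same GTPase family had 12.9 FPKM in miR-7KD and 0.532 FPKM in WT beside 14.5 FPKM in miR-7KD and 2.13 FPKM in WT. The synaptic vesicle protein gene Syngr1 had 34.6 FPKM in miR-7KD and 9.70 FPKM in WT beside 89.6 FPKM in miR-7KD and 8.08 FPKM in WT. In these 5 genes entry and gene gave the same direction, and in Ywhab and Iigp1 nearly the same ratio. The coding gene Tspyl4 was at 108 FPKM in the miR-7KD-titled library and listed at 0 in the WT-titled library, while its entry, which held 99.9% of the gene, was at 110 FPKM in miR-7KD and 54.0 FPKM in WT.

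Where both were lower, the same held. Rgs17, which shortens G-protein signals, had 1.02 FPKM in the miR-7KD-titled library and 13.9 FPKM in the WT-titled library for the entry, beside 1.08 FPKM in miR-7KD and 14.8 FPKM in WT for the gene. Nfil3, a transcriptional repressor of the bZIP family, had 0.0407 FPKM in miR-7KD and 4.54 FPKM in WT for the entry, and the gene was close to 0 in the miR-7KD-titled library and at 5.10 FPKM in the WT-titled library. Ferritin light chain, Ftl1, had 6.71 FPKM in miR-7KD and 46.4 FPKM in WT beside 6.41 FPKM in miR-7KD and 48.8 FPKM in WT, and has retrocopies that may share its fragments. Tomm22, a receptor of the mitochondrial import pore, had 13.7 FPKM in miR-7KD and 53.4 FPKM in WT beside 14.5 FPKM in miR-7KD and 56.2 FPKM in WT. The vesicle protein gene Syt11 had 37.3 FPKM in miR-7KD and 138 FPKM in WT beside 24.8 FPKM in miR-7KD and 129 FPKM in WT, and Rcan2, a calcineurin regulator, had 14.6 FPKM in miR-7KD and 57.9 FPKM in WT beside 9.14 FPKM in miR-7KD and 69.7 FPKM in WT. Syngr1, Tspyl4, Syt11, Ftl1, Tomm22, Rcan2 and Iigp1 were chosen after their values were seen.

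In other genes the coding gene differed and the entry over it did not. Camk2n1, an inhibitor of the kinase CaMKII, was at 2.47 FPKM in the miR-7KD-titled library and 339 FPKM in the WT-titled library, whereas the entry (chr4:138453896-138460115, 99.9% of the gene) was at 278 FPKM in miR-7KD and 274 FPKM in WT. Its 4 listed transcripts split between the libraries. MSTRG.14973.1 was listed at 0 in the miR-7KD-titled library and at 199 FPKM in the WT-titled library, and MSTRG.14973.3 was at 82.3 FPKM in miR-7KD and 32.0 FPKM in WT. Nudt4, a hydrolase of diphosphoinositol phosphates, was at 52.1 FPKM in miR-7KD and 4.38 FPKM in WT, and its entry was at 48.8 FPKM in both libraries. The glial glutamate transporter Slc1a2 was at 24.5 FPKM in miR-7KD and 141 FPKM in WT with an entry at 19.9 FPKM in miR-7KD and 25.5 FPKM in WT. Of its 3 transcripts, MSTRG.11459.1 was at 14.4 FPKM in the miR-7KD-titled library and listed at 0 in the WT-titled library, and MSTRG.11459.3 was listed at 0 in the miR-7KD-titled library and at 25.2 FPKM in the WT-titled library. Under Camk2n1 and Slc1a2 the libraries thus listed different transcript forms.

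Further pairs of this kind were found. Rab3c, a GTPase of vesicle release, was at 3.93 FPKM in the miR-7KD-titled library and 52.5 FPKM in the WT-titled library, and its entry was at 30.4 FPKM in miR-7KD and 48.4 FPKM in WT. Arf3, a GTPase of the Golgi, was at 34.1 FPKM in miR-7KD and 181 FPKM in WT, with an entry at 115 FPKM in miR-7KD and 152 FPKM in WT. The potassium channel gene Kcna2 was at 12.9 FPKM in miR-7KD and 3.51 FPKM in WT with an entry at 13.5 FPKM in miR-7KD and 14.1 FPKM in WT. Slc1a2, Rab3c, Nudt4 and Kcna2 were chosen after their values were seen.

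Entries also differed where the coding gene did not. Socs5, which restrains cytokine receptors, was at 23.4 FPKM in the miR-7KD-titled library and 23.5 FPKM in the WT-titled library, and its entry was at 20.5 FPKM in miR-7KD and 1.32 FPKM in WT. Klhl26, of the kelch family, was at 5.12 FPKM in miR-7KD and 5.98 FPKM in WT with an entry at 0.541 FPKM in miR-7KD and 15.1 FPKM in WT. The sodium, potassium and calcium exchanger Slc24a2 was at 23.2 FPKM in miR-7KD and 39.0 FPKM in WT with an entry at 4.20 FPKM in miR-7KD and 42.1 FPKM in WT, and the sodium and proton exchanger Slc9a7 was at 1.59 FPKM in miR-7KD and 1.49 FPKM in WT with an entry at 8.97 FPKM in miR-7KD and 0.909 FPKM in WT. Both went opposite ways, each at least 2-fold, in 7 gene-wide pairs. These were Hlf, Ssr1, Slc25a46, Gmps, Zfp667, Grm5 and Elavl3. Elavl3, a neuronal RNA-binding protein, was at 27.3 FPKM in miR-7KD and 56.8 FPKM in WT, against 21.9 FPKM in miR-7KD and 8.10 FPKM in WT for its entry. The glutamate receptor gene Grm5 was at 8.55 FPKM in miR-7KD and 17.2 FPKM in WT, against 8.80 FPKM in miR-7KD and 3.67 FPKM in WT for its entry. Slc24a2 and these 7 genes were chosen after their values were seen.

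Transcripts listed at 0 in 1 library were found under pairs of every kind, with the highest shares where the entry differed with its gene or alone. Of 5134 listed transcripts of gene-wide entries, 325 (6.33%) were listed at 0 only in the miR-7KD-titled library and 278 (5.41%) only in the WT-titled library, although no gene-wide entry was at 0. At least 1 such transcript was listed for 38 of 99 entries that differed with their gene (38.4%), for 30 of 89 entries that differed while the gene did not (33.7%), for 22 of 120 entries whose gene alone differed or went the other way (18.3%) and for 424 of 2800 pairs with no 2-fold difference (15.1%). Every listed transcript had 1 FPKM or more in at least 1 of the libraries, so these shares depend on that limit.

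Entries longer than the gene held further examples. Sst was at 169 FPKM in the miR-7KD-titled library and 10.3 FPKM in the WT-titled library, whereas its entry (chr16:23889574-23891443), which adds 599 bases upstream and covers the promoter shown above, was at 90.5 FPKM in miR-7KD and 103 FPKM in WT. Its only listed transcript was listed at 0 in the miR-7KD-titled library and at 93.1 FPKM in the WT-titled library, so that the annotated gene was the higher of the pair in 1 library and the upstream transcript in the other. Mt2 went another way. The gene was at 642 FPKM in miR-7KD and 700 FPKM in WT, and its entry, 380 bases longer upstream, was at 541 FPKM in the miR-7KD-titled library and 249 FPKM in the WT-titled library. Its only listed transcript ran the other way and was a small part of the entry, at 6.52 FPKM in miR-7KD and 63.0 FPKM in WT. Nfkbia, the inhibitor of NF-kB, was at 55.7 FPKM in miR-7KD and 47.4 FPKM in WT, with an entry 665 bases longer downstream at 40.3 FPKM in miR-7KD and 18.6 FPKM in WT. Sst and Mt2 are the coding genes whose promoters are printed, and their results were known when they were chosen.

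Other abundant longer entries had nearly equal values in both libraries. The entry over Gpm6a, a neuronal membrane glycoprotein, reached 175350 bases upstream and was at 306 FPKM in the miR-7KD-titled library and 335 FPKM in the WT-titled library, beside 368 FPKM in miR-7KD and 366 FPKM in WT for the gene. The splicing regulator Rbfox1 was at 20.6 FPKM in miR-7KD and 22.1 FPKM in WT, and its entry, which started 924580 bases upstream, was at 61.7 FPKM in miR-7KD and 57.5 FPKM in WT. Cplx2, a complexin that binds the vesicle fusion machinery, was at 22.1 FPKM in miR-7KD and 20.4 FPKM in WT, and its entry, of which 15.3% lay inside the gene, was at 102 FPKM in miR-7KD and 114 FPKM in WT. In Rbfox1 and in Cplx2, chosen after its values were seen, the entry exceeded the annotated gene in both libraries. Large differences among longer entries were found over Ifitm2, an interferon-induced membrane protein with close paralogs beside it, at 12.6 FPKM in miR-7KD against 0.199 FPKM in WT, and over the orphan receptor gene Gpr27, at 0.524 FPKM in the miR-7KD-titled library against 12.1 FPKM in the WT-titled library. Both genes were under 1 FPKM and went the other way from their entries. Ifitm2 was at 0.184 FPKM in miR-7KD against 0.512 FPKM in WT, and Gpr27 was at 0.704 FPKM in miR-7KD and listed at 0 in WT. Bag5, a co-chaperone of Hsp70, had an entry at 0.411 FPKM in miR-7KD against 10.3 FPKM in WT and went the other way as a gene, at 4.79 FPKM in miR-7KD against 1.50 FPKM in WT. Baalc had an entry at 2.54 FPKM in miR-7KD against 29.8 FPKM in WT and a gene at 4.11 FPKM in miR-7KD against 16.8 FPKM in WT.

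The intronic entries lay in long genes. The 301 entries were in 219 coding genes with a median span of 70696 bases, against 24767 bases for all coding genes, and 107 entries (35.5%) were in genes of at least 500 kb, which make up 1.38% of coding genes. They were short, from 202 to 36416 bases, and low, since 247 of them stayed under 2 FPKM in both libraries. Their median start lay at 36.5% of the coding gene's length. Where the WT-titled library was at 0, the entry in the miR-7KD-titled library ranged over 158 entries from 1.16 to 6.35 FPKM with a median of 1.42. Where the miR-7KD-titled library was at 0, the entry in the WT-titled library ranged over 48 entries from 1.12 to 2.42 FPKM with a median of 1.40. These medians lie just above the 1 FPKM needed for listing, and no ratio is given for them. Of the 95 entries above 0 in both libraries, 18 were at least 2-fold higher and 7 lower. The coding genes themselves did not share the imbalance, with 10 higher and 9 lower of the 187 at 1 FPKM or more.

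The coding genes with most entries were long ones. Fgf14, an intracellular regulator of sodium channels, held 15 intronic entries on chromosome 14, at 1.39 to 2.94 FPKM in the miR-7KD-titled library, of which 13 were listed at 0 in the WT-titled library. Fgf14 itself was at 1.82 FPKM in miR-7KD and 1.64 FPKM in WT. Csmd1, a membrane protein with complement control domains, held 12 intronic entries, of which 10 were listed at 0 in the WT-titled library, while the gene was at 2.77 FPKM in miR-7KD and 2.91 FPKM in WT. Lrp1b, of the LDL receptor family, held 7 intronic entries, 6 of them listed at 0 in the WT-titled library, and a partial entry over 58.0% of the gene that was at 1.96 FPKM in miR-7KD and 1.76 FPKM in WT, close to the 2.01 FPKM in miR-7KD and 1.90 FPKM in WT of the gene. In Sgcz, zeta-sarcoglycan, 3 of 6 entries were listed at 0 in the WT-titled library and 2 in the miR-7KD-titled library, so the direction was not the same in all long genes. Il1rapl1, a synapse organizer chosen after its values were seen, held 5, of which 3 were listed at 0 in the WT-titled library and 2 in the miR-7KD-titled library.

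**Figure D5:**
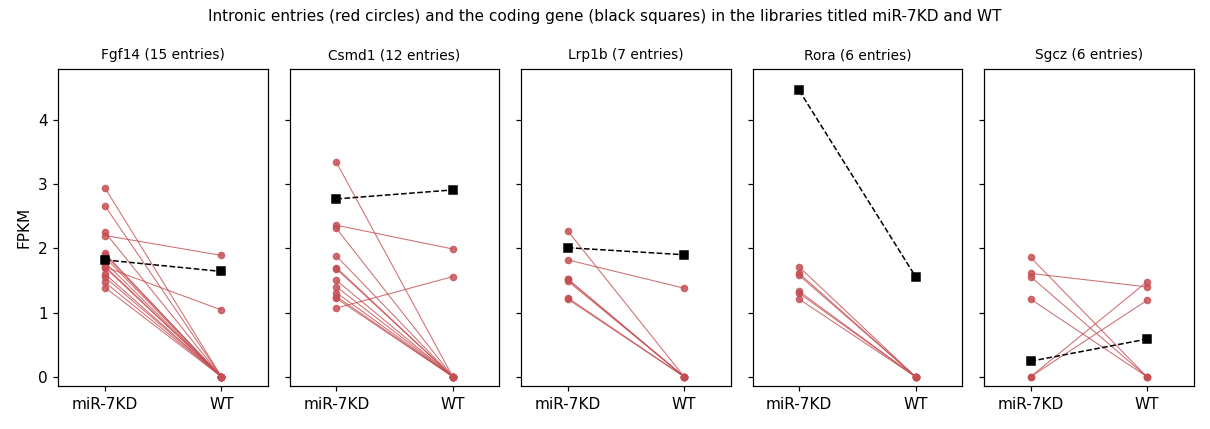
FPKM (y axis) of each intronic entry (red circles, joined by a line per entry) and of the coding gene (black squares) in the miR-7KD-titled and WT-titled libraries, for the 5 coding genes with most entries. In Fgf14, Csmd1, Lrp1b and Rora most lines end at 0 in the WT-titled library, and in Sgcz they run both ways.

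Rora, the nuclear receptor RORα studied as a miR-7 target, held 6 intronic entries of 1 exon, all of them listed at 0 in the WT-titled library. They spanned 1225 to 8270 bases, together 3.17% of the gene, from chr9:68757983-68763233 at 1.71 FPKM to chr9:69243569-69244793 at 1.21 FPKM in the miR-7KD-titled library. The gene was at 4.46 FPKM in miR-7KD and 1.56 FPKM in WT. Other intronic entries listed at 0 in the WT-titled library were in Pkd1, polycystin-1, at 6.35 FPKM, in Cdk5rap2, a centrosomal protein, at 4.81 FPKM and in the peptide transporter gene Slc15a2 at 3.22 FPKM. Those listed at 0 in the miR-7KD-titled library were in Otud7a, a deubiquitinase, at 2.42 FPKM, in the transcriptional repressor Zbtb20 at 2.37 FPKM, in Bloc1s5 at 2.23 FPKM and in the adhesion molecule gene Cntn4 at 1.97 FPKM. All 7 of these coding genes differed by less than 2-fold. The Otud7a and Zbtb20 entries touched an annotated noncoding exon.

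Of the 16 genes that the study predicted as miR-7 targets, 7 had entries, 12 in all. The study chose these genes among those higher in this comparison, so their direction is not independent evidence. Of the 12 entries, 8 were at least 2-fold higher and 0 lower, beside 6.99% higher of all entries, and 6 of the 8 were the Rora entries, beside 58.5% higher of all intronic entries. The others were over Gpr158, an orphan receptor of neurons, at 18.7 FPKM in the miR-7KD-titled library against 6.42 FPKM in the WT-titled library, and over Syt4, a synaptotagmin, at 32.6 FPKM in miR-7KD against 10.7 FPKM in WT. Entries over Spock3, an extracellular proteoglycan, at 21.5 FPKM in miR-7KD against 11.1 FPKM in WT, and over the phosphatase gene Ptprj, at 12.2 FPKM in miR-7KD against 6.70 FPKM in WT, were just under 2-fold, while the genes were at 22.4 FPKM in miR-7KD against 9.72 FPKM in WT and 12.9 FPKM in miR-7KD against 5.59 FPKM in WT. Over Gtdc1 and Col4a3bp, the ceramide transporter, the genes and their entries parted. Gtdc1 was at 5.81 FPKM in miR-7KD and 2.23 FPKM in WT with an entry at 5.67 FPKM in miR-7KD and 5.60 FPKM in WT, and Col4a3bp was at 20.5 FPKM in miR-7KD and 5.93 FPKM in WT with an entry at 12.9 FPKM in miR-7KD and 11.2 FPKM in WT. All but the Rora entries and those over Ptprj and Syt4 were gene-wide.

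Of the 229 entries with a microRNA hairpin, 7 were at least 2-fold higher and 5 lower (5.24%), beside 11.3% of all 4996 entries. The share of all entries holds the intronic class, at 76.7%. Most entries with a hairpin were gene-wide, and the share was 6.53% for all gene-wide entries. It was 9.66% for those longer than the gene and 7.60% for partial ones. The 4 described here, of which those with Mir128-1, Mir128-2 and Mir338 were chosen after their values were seen, differed by less than 2-fold. The Hnrnpk entry with Mir7-1 was at 32.9 FPKM in the miR-7KD-titled library and 30.1 FPKM in the WT-titled library, beside 50.4 FPKM in miR-7KD and 50.6 FPKM in WT for Hnrnpk. It ends 2270 bases downstream of the gene. The R3hdm1 entry with Mir128-1 was at 3.71 FPKM in miR-7KD and 4.46 FPKM in WT beside 3.32 FPKM in miR-7KD and 4.35 FPKM in WT, and the Arpp21 entry with Mir128-2 was at 15.1 FPKM in miR-7KD and 10.5 FPKM in WT beside 16.0 FPKM in miR-7KD and 7.73 FPKM in WT. The entry over Aatk with Mir338, a microRNA of oligodendrocytes, was at 33.9 FPKM in miR-7KD and 26.4 FPKM in WT beside 33.9 FPKM in miR-7KD and 27.8 FPKM in WT. Levels of host entries do not give those of the mature microRNA, which these tables do not hold.

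Entries over adhesion and synapse organizer genes, the list with most entries, were often intronic. Of 99 entries over 53 genes of this group, 41 were higher and 3 lower in the miR-7KD-titled library (44.4%), beside 11.3% of all 4996 entries, and the median log2 ratio was 0.48, beside 0.0065 over all entries. Among its 52 intronic entries 38 were higher and 3 lower (78.8%), near the 76.7% of all intronic entries, and of its 33 gene-wide entries 3 were higher and 0 lower. The coding genes with an entry had 3 higher and 1 lower of 52. The share in this group therefore went with its intronic entries. The 3 gene-wide ones were Negr1, at 16.9 FPKM in the miR-7KD-titled library against 7.95 FPKM in the WT-titled library, Dlg2 at 9.97 FPKM in miR-7KD against 4.71 FPKM in WT and Cntnap5a at 3.91 FPKM in miR-7KD against 1.27 FPKM in WT, and of these coding genes Negr1 was also 2-fold higher, at 23.4 FPKM in miR-7KD against 4.13 FPKM in WT. Of 27 entries over glutamate and GABA-A receptor genes 6 were higher and 2 lower (29.6%), beside 11.3% of all entries, and their median log2 ratio was 0.14. Of their 7 intronic entries 3 were higher and 1 lower, and of their 16 gene-wide entries 2 were higher and 1 lower. The coding genes with an entry had 0 higher and 2 lower of 23. The NMDA receptor gene Grin2b had an entry at 5.88 FPKM in miR-7KD against 0.850 FPKM in WT with a gene at 1.53 FPKM in miR-7KD against 0.889 FPKM in WT, and the kainate receptor gene Grik2 had an entry at 1.28 FPKM in miR-7KD against 5.06 FPKM in WT with a gene at 2.75 FPKM in miR-7KD against 3.33 FPKM in WT. Negr1, Dlg2, Cntnap5a, Grin2b and Grik2 were chosen after their values were seen. Over the AMPA receptor genes, the entry of Gria1 was at 34.9 FPKM in miR-7KD and 34.0 FPKM in WT and that of Gria2 at 27.4 FPKM in miR-7KD and 27.8 FPKM in WT.

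Other large groups differed about as often as gene-wide entries. At least 2-fold differences were seen in 5.88% of entries over voltage-gated channel genes and in 6.98% over RNA-binding and splicing regulators. Over neuronal kinases, phosphatases and scaffolds the share was 5.41%. Beside these stood 11.3% of all entries and 6.53% of gene-wide ones. Of 34 entries over voltage-gated channel genes 1 was higher, over the potassium channel gene Kcnj3 at 7.92 FPKM in the miR-7KD-titled library against 3.05 FPKM in the WT-titled library, and 1 was lower, an intronic entry in Kcnh7 at 0.312 FPKM in miR-7KD against 1.12 FPKM in WT. Of 43 over RNA-binding and splicing regulators 2 were higher, over Elavl3 and in an intron of Srrm4, and 1 was lower, over Elavl4 at 9.18 FPKM in miR-7KD against 26.6 FPKM in WT. Of 37 over neuronal kinases, phosphatases and scaffolds, that over Prkar2b, a regulatory subunit of protein kinase A, was higher at 16.9 FPKM in miR-7KD against 5.86 FPKM in WT, and that over the kinase gene Map2k4 was lower at 12.3 FPKM in miR-7KD against 37.6 FPKM in WT. These genes are named because they differed, as is Olig2 below. The helicase gene Ddx5 had an entry at 101 FPKM in miR-7KD and 102 FPKM in WT beside 113 FPKM in miR-7KD and 115 FPKM in WT, and the presynaptic calcium sensor Syt1 had one at 79.7 FPKM in miR-7KD and 72.1 FPKM in WT beside 81.8 FPKM in miR-7KD and 75.8 FPKM in WT. Of the LPS and NF-kB response genes 5 had an entry. The entry over Lcn2, an acute-phase protein induced in LPS-treated brain, was at 82.8 FPKM in miR-7KD and 85.2 FPKM in WT beside 86.5 FPKM in miR-7KD and 89.1 FPKM in WT, and that over Nfkbia was the 1 that was at least 2-fold higher.

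Entries over cell type markers were few. At such numbers their counts cannot be told from the shares that differed 2-fold elsewhere, 11.3% of all entries and 6.53% of gene-wide ones. Of 7 entries over neuron markers, 7 over astrocyte markers, 2 over microglia markers and 3 over endothelial and mural markers, 0 were 2-fold different, and of 4 over oligodendrocyte markers 1 was higher, that over the lineage factor gene Olig2 at 1.53 FPKM in miR-7KD against 0.240 FPKM in WT. The entry over Thy1, a neuronal surface protein, was at 90.8 FPKM in the miR-7KD-titled library and 133 FPKM in the WT-titled library beside 135 FPKM in miR-7KD and 163 FPKM in WT, and that over the astrocyte receptor gene Ntsr2 was at 41.2 FPKM in miR-7KD and 35.5 FPKM in WT beside 66.5 FPKM in miR-7KD and 59.0 FPKM in WT. The entry over Mag, myelin-associated glycoprotein, was at 55.2 FPKM in miR-7KD and 48.1 FPKM in WT beside 54.3 FPKM in miR-7KD and 52.8 FPKM in WT. An entry inside the span of the microglial fractalkine receptor gene Cx3cr1, on 7.56% of it, was at 4.90 FPKM in miR-7KD and 5.35 FPKM in WT, whereas Cx3cr1 was at 0.0172 FPKM in the miR-7KD-titled library and 3.03 FPKM in the WT-titled library. This entry lay over 2 coding genes, of which Cx3cr1 was taken, so its level may not be that of Cx3cr1 RNA. The RNA-binding protein gene Qk of oligodendrocytes was at 10.8 FPKM in miR-7KD and 23.9 FPKM in WT with an entry at 14.6 FPKM in miR-7KD and 18.9 FPKM in WT. In Slc1a2 and Qk, glial markers whose genes were at least 2-fold lower, the entries differed by less than 2-fold. Cx3cr1 was also at least 2-fold lower, but the entry inside its span cannot be assigned to it.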

How the data were processed

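The authors deposited FPKM in 4 tables, 1 each for genes and for transcripts of the coding and of the unannotated kind, with 1 column per library. How reads were assembled into transcripts, and by which program levels were computed, is not given in the sources. Bowtie 0.12.2 and mm8 are the aligner and build in the submitters' processing notes, whereas 13362 of 13381 coding genes overlap the gene of the same identifier in GENCODE M21, so positions are those of GRCm38.

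Entries were intersected with coding genes by chromosome and strand, and exons came from GENCODE M21. Column headings gave the animal number of each title. Log2 ratios used 0.1 FPKM added to both values, which understates changes of low entries, an entry at 1 FPKM or more and a 2-fold limit. No fold is given against a value of 0. With 1 library per title no test, SD or interval was possible, and depth is unknown. The intersection and the ratios were checked on simulated tables.

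The entries and the 13 gene lists (404 genes) were chosen with earlier results of these data known. Named entries were those over predicted miR-7 targets and the miR-7 host gene, the 10 highest, the 8 largest ratios each way above 0 in both libraries and at 2 FPKM or more, the 5 highest at 0 in either library, those of the 5 genes with most entries, the 5 with the largest share of a coding gene of 10 kb or more and up to 3 per list. Of these the text gives the ones that show a pattern. Others are marked as chosen after their values were seen, and so were the 4 classes and the comparison of gene-wide pairs. Alternatives were other pseudocounts, minimum levels, folds, overlap limits, a rescaling, entries at 0 left out, entries of 1 exon and another choice of coding gene. A planned search of 3′ end sequences was not run because it needs a genome sequence, not used here. Promoters and microRNAs came from RefSeq tables of GRCm38.p6, in which the coding gene of 3886 entries had a promoter. Computation was done in Python 3.11.15 with pandas 2.3.3, numpy 2.4.6, matplotlib 3.10.9 and scipy 1.17.1.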

Additional observations from a re-analysis of the deposited data

How the results depend on the processing

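The counts of entries at least 2-fold higher (349) and lower (217) were within 1.5 times of these values with 0.01 or 1 FPKM added, with no minimum level, after rescaling to the median coding gene and for entries at least 50% inside the coding gene. A minimum of 2 FPKM left 180 higher, and leaving out entries at 0 in either library left 187, so the higher count rested in part on low entries that 1 library lists at 0. A 3-fold limit left 120 lower. Entries of 1 exon alone gave 176 higher and 51 lower. Of the 4996 entries, 1501 lay entirely within the coding gene. Spearman's rank correlation of the log2 ratios of entry and coding gene, 0.565 over all entries, was 0.617 without values of 0. The share of coding differences also found in the gene-wide entry stayed between 36.8% and 50.3% under the 8 alternatives, which were chosen after seeing the data. The rank correlation of the levels and the median log2 ratio moved by less than 0.05 under their alternatives. No paired analysis was possible because there is 1 library per title and the animal numbers are not shared. Depth is unknown, so counting error could not be given.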
